A study of Mus musculus with 6 samples.

Results

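The genes described here make, carry and break down dopamine, noradrenaline and serotonin. They are 9 of the 18193 genes named on the array, chosen by name for their place in that pathway, and every probe set annotated to exactly 1 of their symbols was taken without regard to brightness. This gave 13 of the 45037 probe sets on the array that are not Affymetrix controls. Each probe set combines the brightness of several short probes for 1 transcript. Slc6a3, Th, Slc18a2, Tph2, Slc6a4 and Maob had 1 probe set each, Ddc and Maoa had 2, and Dbh had 3. Only 1 of the 13 was dim, meaning that its mean level lay among the lowest 40% of all probe sets.

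The mice were 4 melanotransferrin knockouts (MTf -/-, strain given as C57BL/6 - Lucy) and 2 wild types (MTf +/+, strain C57BL/6). All were females of 123 days from a single litter, the labels name no treatment, and each gave brain RNA to 1 Affymetrix Mouse Genome 430 2.0 array. Melanotransferrin, anchored at the cell membrane, is a relative of transferrin that binds iron. The sources used here do not say how the allele was made, which part of the gene it removes or how each brain was dissected.

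Tyrosine hydroxylase and tryptophan hydroxylase are iron enzymes that open the synthesis of catecholamines and of serotonin, and both need tetrahydrobiopterin as cofactor. In brain their genes are switched on in small groups of cells: dopamine neurons of the midbrain, hypothalamus and olfactory bulb, noradrenaline neurons of the locus coeruleus, and serotonin neurons of the raphe in the brainstem. The transmitter is packed into vesicles by Slc18a2, taken back by Slc6a3 (dopamine) or Slc6a4 (serotonin), and degraded by the monoamine oxidases Maoa and Maob of the mitochondrial outer membrane, which other neurons and glia hold too.

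The stretches just before the start sites are shown for Th and Tph2, which open the catecholamine and serotonin pathways, and for Slc6a3 and Slc6a4, which take dopamine and serotonin back up. Each is the 250 bases before the start on the strand of the gene, from RefSeq on GRCm38.p6, and 8 of the 9 genes had such an entry. The Slc6a3 stretch lies inside the annotated gene, which begins at base 73536128. Capitals mark matches to 4 motifs searched on both strands in the 250 bases before and 50 after the start. These were the cAMP response element TGACGTCA, the TATA box TATAAA, the E-box CACGTG and the Nr4a2 element AAAGGTCA.
Th, chr7:142899996-142900245, minus strand: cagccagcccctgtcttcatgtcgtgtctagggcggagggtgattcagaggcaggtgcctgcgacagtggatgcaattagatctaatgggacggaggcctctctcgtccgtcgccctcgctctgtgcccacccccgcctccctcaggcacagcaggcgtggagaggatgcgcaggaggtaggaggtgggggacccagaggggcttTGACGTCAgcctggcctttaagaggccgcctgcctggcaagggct
Slc6a3, chr13:73536497-73536746, plus strand: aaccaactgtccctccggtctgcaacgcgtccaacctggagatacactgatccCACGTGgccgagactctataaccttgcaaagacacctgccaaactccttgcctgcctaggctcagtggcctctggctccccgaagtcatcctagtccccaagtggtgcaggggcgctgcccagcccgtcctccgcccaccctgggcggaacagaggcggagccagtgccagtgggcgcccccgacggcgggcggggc
Tph2, chr10:115185023-115185272, minus strand: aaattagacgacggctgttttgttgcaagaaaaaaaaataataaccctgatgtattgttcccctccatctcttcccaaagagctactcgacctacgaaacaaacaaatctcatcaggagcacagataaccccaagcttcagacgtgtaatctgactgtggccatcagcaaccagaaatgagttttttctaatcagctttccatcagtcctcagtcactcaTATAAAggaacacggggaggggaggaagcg
Slc6a4, chr11:76998347-76998596, plus strand: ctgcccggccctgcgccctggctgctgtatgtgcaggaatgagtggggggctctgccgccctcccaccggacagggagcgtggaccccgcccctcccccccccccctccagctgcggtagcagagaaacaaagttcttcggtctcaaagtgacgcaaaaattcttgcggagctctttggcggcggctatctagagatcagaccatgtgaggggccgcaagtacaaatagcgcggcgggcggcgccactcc
The cAMP response element of Th ran from base -45 to -38, counting the base before the start as -1, and the TATA box of Tph2 from -30 to -25. Slc18a2 held the other cAMP response element among the 8 genes searched, from -4 to 4 across its start. In the first of the 2 Ddc windows an Nr4a2 element and a TATA box, both on the opposite strand, overlapped at -68 to -66. Of 32851 windows of the same length, 1.79% held the cAMP response element, 13.6% the TATA box, 7.15% the E-box and 1.51% the Nr4a2 element. These are matches of letters only. The 4 windows printed share none of the motifs with each other.

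Before the results, 2 arrays have to be named. Knockout 2 stood apart in genes of the cerebellum: the Purkinje cell gene Pcp2 read 185.8 there and 22260 to 34050 elsewhere, and the granule cell gene Gabra6 read 87.6 there and 6938 to 15711 elsewhere. Wild type 1 was the dimmest array, with a median signal of 192.5 against 238.2 to 278.3, and it was the lowest of the 6 for 30.9% of all probe sets. The Meltf probe set itself read 80.7, 132.9, 155.9 and 84.1 in knockouts 1 to 4, against wild types at 146.5 and 228.7. Those groups overlapped, and since the position of its probes relative to the deletion is not given, this value does not check the labels.

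Across the 4 knockouts and 2 wild types, none of the 9 genes passed the test, and knockout 2 was the lowest array for most of them. On the brightest probe set of each gene, 8 of 9 were lower in the knockout group, and the median log2 fold change was -0.33, against 0.078 over all 45037 probe sets, of which 39.7% were lower. None of these 9 was dim, and with dim probe sets left out the median over the remaining 27022 was 0.036. In limma 0 of 13 probe sets passed an adjusted p of 0.05, as did 0% of all probe sets, and 1 of 13 had an unadjusted p below 0.05, where the share over all probe sets was 6.76%. Groups did not overlap for 1 of 13, the dim Ddc probe set, against 16.1% of all probe sets. Without knockout 2 the median log2 fold change of the 9 genes was -0.16, that of all probe sets was 0.087, and again 0 of 13 passed in limma. Of the 13, 1 had an unadjusted p below 0.05 there, against 6.04% of all probe sets, and 7 were lower in the knockout, where 10 of 13 were lower with all arrays. On the brightest probe sets 7 of 9 were lower without knockout 2, against 39% of all probe sets. In RNA from a whole tissue, fewer cells of a type and less RNA per cell cannot be told apart.

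**Figure D1:**
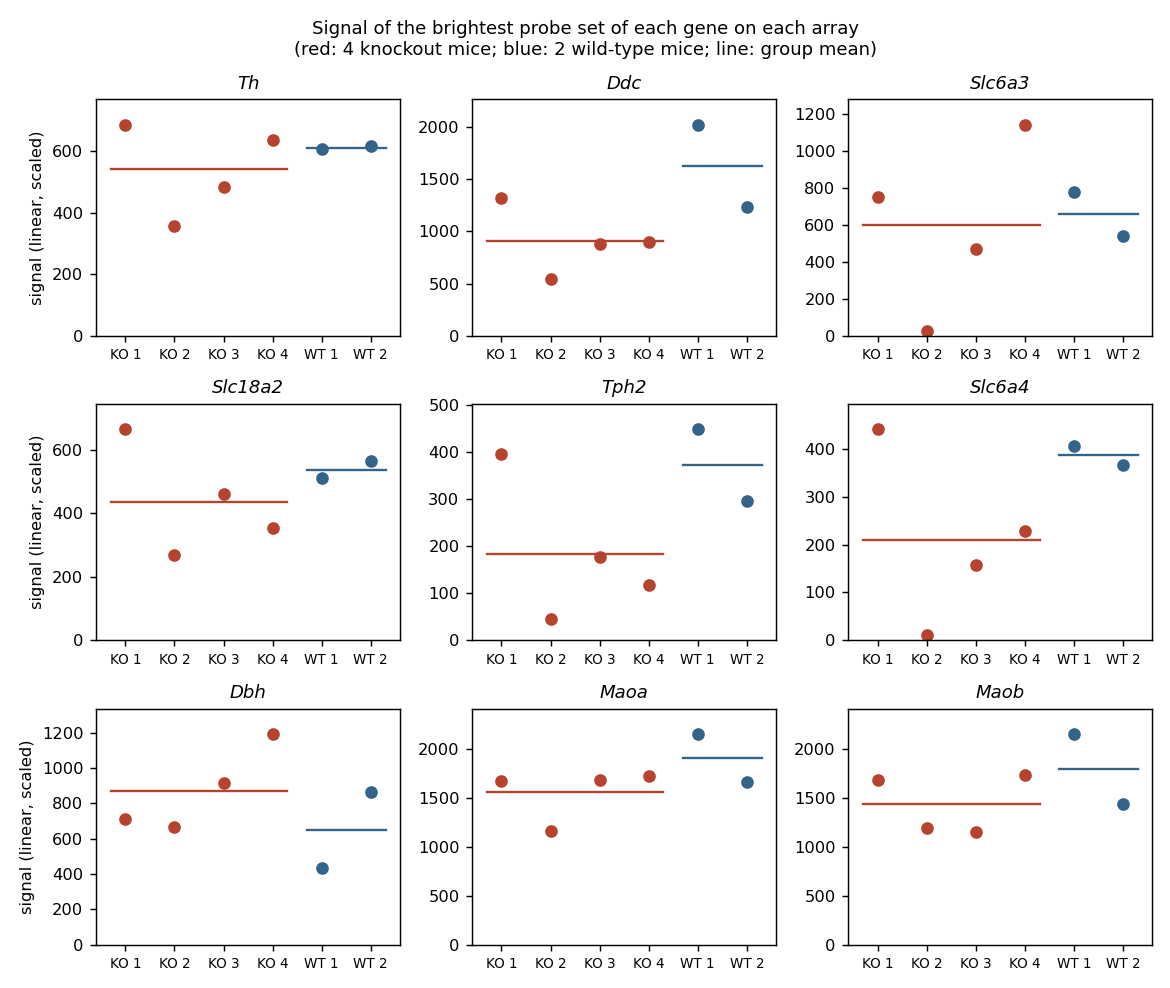
Signal on a linear scale (vertical axis) of the brightest probe set of each of the 9 genes on each array (horizontal axis), knockouts in red and wild types in blue, with the group mean as a line. Knockout 2 is the lowest array in 7 of the 9 panels, and Slc6a3 and Slc6a4 read 23.6 and 11.3 there.

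Knockout 2 was the lowest of the 6 arrays for 7 of the 9 genes and for 9 of the 13 probe sets, where it was the lowest for 16.4% of all probe sets. Of the other arrays, wild type 1 was lowest for 3 of the 13 and knockout 3 for 1. The log2 signal of knockout 2 minus the median of the other 5 arrays had a median of -0.82 over the 9 genes and of -0.013 over all probe sets. Knockout 2 had under 50% of the lowest other array for 4 of the 13, the probe sets of Slc6a3, Slc6a4 and Tph2 and 1 of Dbh, against 2.38% of all probe sets.

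Th, the rate-limiting enzyme of dopamine and noradrenaline synthesis, read 686.5, 358, 485.5 and 636.4 in knockouts 1 to 4, against wild types at 608.1 and 616.8. Knockouts 1 and 4 lay above both wild types and knockouts 2 and 3 below both. The log2 fold change was -0.20 ± 0.26 (SE, 95% interval -0.78 to 0.38, limma adjusted p = 0.884). It was -0.034 without knockout 2, -0.32 without knockout 1 and -0.41 after centring arrays on their medians. Its signal in knockout 2 was 73.7% of the lowest other array.

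Slc6a3, the dopamine transporter of midbrain dopamine neurons, had the widest spread of the 9. It read 753, 23.6, 472.1 and 1142 in knockouts 1 to 4, against wild types at 775.7 and 539.6. Knockout 2 had 3.13% of the median of the other arrays, while knockout 4 was above both wild types, so the groups overlapped widely. The log2 fold change of -0.67 (standard error 0.88, limma adjusted p = 0.885) became 0.19 (standard error 0.33) without knockout 2, with a 95% confidence interval from -0.57 to 0.94. The value in knockout 2 lay below the added offset of 49.6, so the offset sets the size of the first of these: it was -0.36 with an offset 4 times larger and -0.90 with one 0.25 times as large.

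Ddc, aromatic L-amino acid decarboxylase, which completes the synthesis of both dopamine and serotonin, had the smallest p of the 13. Its bright probe set read 1320, 544, 877.4 and 896.8 in knockouts 1 to 4, against wild types at 2022 and 1231. Knockouts 2, 3 and 4 lay below both wild types and knockout 1 between them. The mean was 909.5 ± 317.9 (SD, n = 4) for knockouts, against 1627 ± 559.7 (SD, n = 2) for wild types, 1.77-fold lower on the log2 scale with offset, where the change was -0.83 ± 0.30 (SE). This did not pass in limma over all probe sets (unadjusted p = 0.0222, adjusted p = 0.738), and the exact permutation test over the 15 splits gave p = 0.267, where the smallest possible is 0.0667. Wild type 1 was the highest array, and without it the log2 fold change was -0.48, a value more than 1.5 times smaller. Without knockout 2 it was -0.62 (limma adjusted p = 0.814), and without knockout 1 it was -1.02. The second Ddc probe set was dim and was higher in the knockouts, at 32.9, 48.1, 46.4 and 19.5 in knockouts 1 to 4, against 5.6 and 18.8 in wild types 1 and 2. All 6 of these lay below the added offset.

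Slc18a2, the vesicular carrier shared by all monoamine neurons, read 664.3, 267.5, 460.4 and 355 in knockouts 1 to 4, against wild types at 510.1 and 563.7. As for Ddc, 3 of the 4 knockouts lay below both wild types, and here knockout 1 was the highest of all arrays. The log2 fold change was -0.33 ± 0.32 (SE, limma adjusted p = 0.834). It was -0.15 without knockout 2, -0.54 without knockout 1 and -0.55 after median centring.

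With all 6 arrays and the offset of 49.6, the serotonin genes Tph2 and Slc6a4 had the largest fold changes of the 9, and neither passed. Ddc was further from 0 than Slc6a4 without knockout 2, and further than both with the larger offset, at -0.73. Tph2, the tryptophan hydroxylase of brain, read 397.4, 44.8, 177 and 116.9 in knockouts 1 to 4, against wild types at 449.1 and 296.4. Knockouts 2, 3 and 4 were all below both wild types, and knockout 1 lay between them. The mean was 184 ± 152.2 (SD, n = 4) for knockouts, against 372.8 ± 108 (SD, n = 2) for wild types, and the log2 fold change -1.06 ± 0.55 (SE), with a 95% interval of -2.28 to 0.16 (limma adjusted p = 0.743, exact permutation p = 0.267). Unlike that of Slc6a3, the Tph2 estimate kept its direction without knockout 2, at -0.70 with a 95% confidence interval from -1.73 to 0.34. Without knockout 1 the Tph2 estimate was -1.44. Its value in knockout 2 also lay below the offset, and the estimate over all arrays was -0.65 with an offset 4 times larger and -1.29 with one 0.25 times as large.

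Slc6a4, the serotonin transporter, read 441.5, 11.3, 157.3 and 228.1 in knockouts 1 to 4, against wild types at 407.5 and 367.5. The order of the mice was much as for Tph2: knockout 1 was beside or above the wild types, knockouts 3 and 4 were lower than both, and knockout 2 had 7.18% of the lowest other array. The log2 fold change was -1.10 ± 0.67 (SE, limma adjusted p = 0.762, exact permutation p = 0.333), and -0.52 without knockout 2, with a 95% confidence interval from -1.42 to 0.38. Without knockout 1 Slc6a4 was at -1.52. Its value in knockout 2 was below the offset, and the full estimate ran from -1.46 with an offset 0.25 times as large to -0.63 with one 4 times larger.

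Ddc, Slc18a2, Tph2 and Slc6a4 were the 4 of 9 genes with 3 of 4 knockouts below both wild types. Of all probe sets, 14.8% had 3 or more of 4 there. Knockout 1 was the exception for all 4. All 4 are made by serotonin neurons, and Ddc and Slc18a2 also by dopamine and noradrenaline neurons. Of 14 measured transcription factors of monoamine neurons, Nkx2-2 and En2 had 4 of 4 knockouts below both wild types and Insm1 had 3. The other factors, the raphe factor Lmx1b among them, had 2 or fewer, and Maob had 2.

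**Figure D2:**
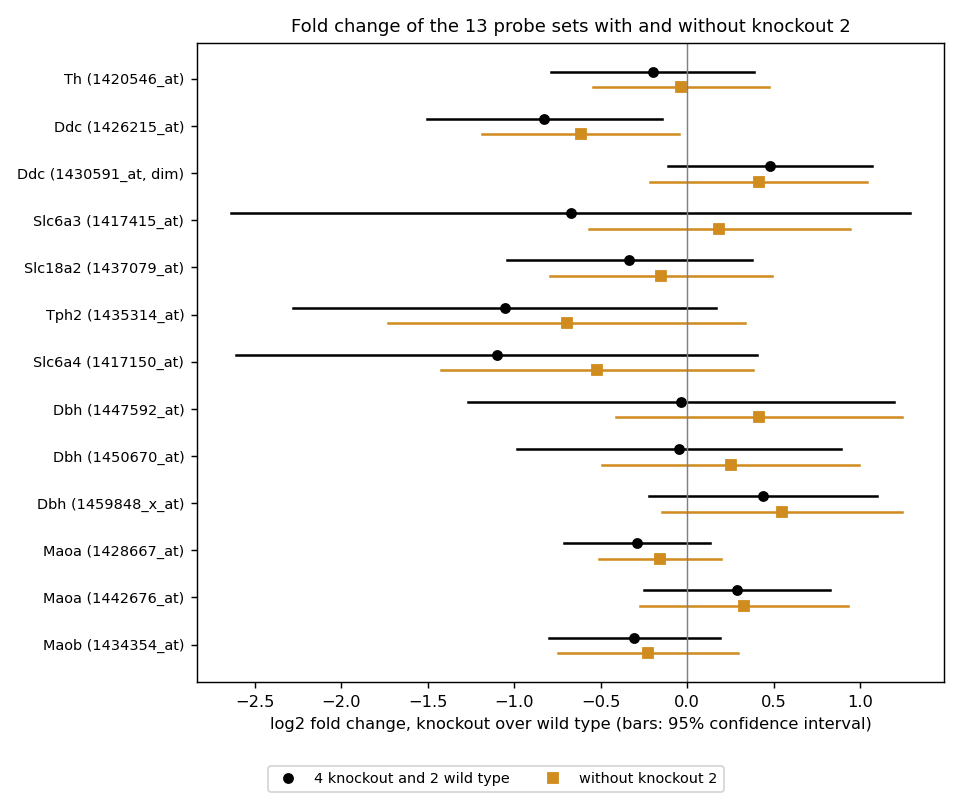
Log2 fold change, knockout over wild type (horizontal axis), of the 13 probe sets with 95% confidence intervals, from all 6 arrays (black) and without knockout 2 (orange). Slc6a3 moves from -0.67 to 0.19, while Ddc on its bright probe set, Tph2 and Slc6a4 stay below 0 at -0.62, -0.70 and -0.52.

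Dbh, dopamine beta-hydroxylase, which turns dopamine into noradrenaline and marks the locus coeruleus, had 3 probe sets that differed in which array was lowest. The first probe set read 404.7, 134, 384.5 and 326.4 in knockouts 1 to 4, against wild types at 217.6 and 417.1. Knockout 2 was lowest and wild type 1 next. The second read 223.1, 60, 341.7 and 476.8 in the knockouts and 209.3 and 269.2 in the wild types, with knockout 2 lowest again. On the brightest, whose name carries an x, the knockouts read 712, 668, 915.1 and 1193 and the wild types 432.5 and 866.9, so that wild type 1 and not knockout 2 was lowest. That letter marks probes that may also match other transcripts. The log2 fold changes were -0.048, -0.037 and 0.44, with standard errors of 0.42, 0.55 and 0.30 (limma adjusted p = 0.985, 0.991 and 0.782). Without knockout 2 the first 2 were 0.25 and 0.41, and without wild type 1 the third was -0.027.

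Maoa, which prefers serotonin and noradrenaline, read 1674, 1160, 1683 and 1724 in knockouts 1 to 4, against wild types at 2155 and 1663 on its brighter probe set. By the standard deviation of log2 signal over the 6 arrays, 0.28, this was the smallest spread of the 9 genes, while by the range Th was smaller, at 0.85 against 0.87. Knockouts 1, 3 and 4 and wild type 2 lay within 1663 to 1724, with knockout 2 alone below and wild type 1 alone above. The log2 fold change was -0.29 ± 0.19 (SE, limma adjusted p = 0.776). It was -0.11 without wild type 1, -0.47 without wild type 2, -0.16 without knockout 2 and -0.50 after median centring. The dimmer Maoa probe set read 613.5, 510.9, 500.2 and 639 in the knockouts and 352.9 and 576.7 in the wild types. This gave a log2 fold change of 0.29, or -0.032 when wild type 1 was left out.

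Maob, the form found in serotonin neurons and astrocytes, lies beside Maoa on the X chromosome. It read 1686, 1191, 1149 and 1735 in knockouts 1 to 4, against wild types at 2152 and 1441. Here knockout 3 was lowest, with knockout 2 close above it, and the log2 fold change was -0.31 ± 0.22 (SE, limma adjusted p = 0.792). Without wild type 1 it was -0.025, without wild type 2 it was -0.59, and after median centring it was -0.52. Wild type 1 was the highest array for Ddc, Tph2, Maoa and Maob, 4 of the 9 genes, where it was the highest for 15% of all probe sets.

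Genes that serve the same neurons were read from lists chosen for their role, on the brightest probe set of each gene. Of 75 listed genes 57 were measured and the others are not analysed here. In limma 0 of the 57 passed an adjusted p of 0.05, and 7 had an unadjusted p below 0.05, 5 higher and 2 lower in the knockout. The higher ones were Nr4a2, Pnmt, Htr3a, Htr3b and Htr5a and the lower ones Aldh1a1 and Nkx2-2, of which Htr3a and Htr5a are named after their values were seen. Over all probe sets 4.92% were higher and 1.84% lower at that level. Knockout 2 was the lowest array for 19 of the 57 and the highest for 7, against 16.4% and 14.9% of all probe sets.

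The cofactor genes include Gch1, which makes the first step of tetrahydrobiopterin synthesis, and its regulator Gchfr. Gch1 read 280, 104.1, 212.7 and 361.6 in knockouts 1 to 4, against wild types at 203.9 and 228.8. Gchfr read 10.3 in knockout 2 and 133.5 to 266.6 elsewhere. Both were lowest in knockout 2, as were Spr, Qdpr and Pcbd1, 5 of the 7 measured cofactor genes. Qdpr and Pts, which act in cofactor recycling and synthesis, varied little: Qdpr ran from 35632 to 42164 in the knockouts, against 35660.5 and 43555 in the wild types, and Pts from 1745 to 1940 against 1578 and 2124. The log2 fold changes of Gch1, Pts, Spr, Qdpr and Pcbd1 were 0.033, 0.019, 0.14, -0.044 and -0.16, all with a limma adjusted p of at least 0.888, and those of Gch1, Pts and Spr were below 0 after centring arrays on their medians.

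Among transcription factors that specify these neurons, 6 of 14 were lowest in knockout 2. Lmx1b, needed for raphe and midbrain dopamine neurons, read 12.5 there and 142.4 to 329.7 elsewhere, and Foxa2 of the ventral midbrain read 32.2 against 96.7 to 274.2. En2, a midbrain and cerebellar factor, read 152.9 against 1452 to 2618. Of the same list, En1, Lmx1a and Otx2 were not lowest there, at 54.1, 88.5 and 162.7. The lowest other arrays read 38.2, 18.7 and 91.6, and En1 and Lmx1a were dim. Insm1 was highest in knockout 2, at 479.6 against 205 to 457.7. Nr4a2, a dopamine neuron factor that cortex also expresses, was highest there too. It read 4523, 5447, 5149 and 4677 in knockouts 1 to 4, against wild types at 4160 and 3554, with no overlap between the groups and knockout 2 highest. Its log2 fold change was 0.36 ± 0.13 (SE) and did not pass in limma (unadjusted p = 0.0225, adjusted p = 0.738). It was 0.24 without wild type 2 and 0.14 after median centring. Nkx2-2, of ventral brainstem and of oligodendrocyte precursors, had a log2 fold change of -0.55, with knockouts from 343.5 to 549.7 and wild types at 709.2 and 591.9 (limma adjusted p = 0.738). Pitx3, Phox2a and Gata3 were dim, with log2 fold changes of 0.51, 0.45 and -0.35, each of the opposite sign without wild type 1. Gata2 was 0.013.

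Other genes rich in midbrain dopamine neurons were lowest in knockout 2 in 6 of 9 cases. The 6 include Calb1, which Purkinje cells also make and which the cerebellar list holds too. They also include the dim Chrnb3, at 17.9 in knockout 2 and 18.4 in knockout 3, both below the offset of 49.6. Chrna6, a nicotinic receptor subunit, read 199.6 there and 271.3 to 517.7 elsewhere, the receptor tyrosine kinase Ret 285 against 729.5 to 1222, and Sncg, gamma-synuclein, 228.5 against 796.6 to 1941. The neurotensin receptor gene Ntsr1 of the same list was highest in knockout 2, at 422.7 against 198.7 to 382.5. Of the knockout group as a whole, Calb1 and the potassium channel gene Kcnj6 had the smallest p in each direction, at -0.45 and 0.60 on the log2 scale (limma adjusted p = 0.743 and 0.750), and Calb1 was -0.29 without knockout 2 and also without wild type 1. Aldh1a1, an aldehyde dehydrogenase of a subset of dopamine neurons and of other cells, had the smallest p among lower genes in the list of 8 related enzymes and carriers. It read 7319, 3672, 6758 and 7981 in knockouts 1 to 4, against wild types at 10577 and 9379, with a log2 fold change of -0.69 (limma unadjusted p = 0.0284, adjusted p = 0.738). Without knockout 2 this was -0.44.

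Of the remaining enzymes and carriers, Pnmt, which makes adrenaline, was 0.90 on the log2 scale (limma adjusted p = 0.738) and 0.25 without wild type 1, which read 99.1 against 289 to 437.5 on the other arrays. The noradrenaline transporter Slc6a2 was 0.31, with knockouts from 176 to 442 and wild types at 194.8 and 176.1. Only knockout 4 was that high, and without it the value was 0.057. Tph1, the tryptophan hydroxylase of pineal and gut, was dim, with knockouts from 15 to 135.6 and wild types at 16.7 and 89.1.

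Receptors for these transmitters lie mostly on target neurons, and none of the 19 measured was lowest in knockout 2. Drd1, the dopamine receptor of the direct striatal pathway, was highest there, at 1630, 4467, 3264 and 1643 in knockouts 1 to 4, against wild types at 1893 and 2111. Its log2 fold change of 0.32 was 0.044 without knockout 2. Drd2 ran from 712.4 to 1117 in the knockouts, against 931.5 and 803.1 in the wild types. Htr2c ran from 2921 to 3567 against 3832 and 3459, and Htr1a from 325.7 to 519.2 against 320.4 and 510.6. These 3 had log2 fold changes of 0.14, -0.12 and -0.0100, none of them passing in limma.

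The receptors with the smallest p in each direction did not pass either. Htr3b, a subunit of the serotonin-gated channel, had the smallest p among serotonin receptors and read 82, 41.2, 50.1 and 50.2 in knockouts 1 to 4, against 9.5 and 5.3 in wild types 1 and 2 (log2 fold change 0.87, limma adjusted p = 0.738). Its probe set was dim. The wild-type values and that of knockout 2 lay below the offset of 49.6, and knockouts 3 and 4 were close to it, so the offset set the size of this value. The others were Drd3 at 0.76, Drd4 at -0.20, Htr2b at -0.39, Adra2c at 0.22 and Adra1b at -0.65, with limma adjusted p from 0.765 to 0.938. Of these Drd3, Drd4, Htr2b and Adra1b were dim, and single arrays moved them by more than 1.5 times. Drd3 was 0.080 without wild type 1, which read 5.3, and 1.45 without wild type 2. Drd4 ran from -0.48 to 0.072, Htr2b from -0.60 to -0.21 and Adra1b from -0.85 to -0.39 as each array was left out.

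**Figure D3:**
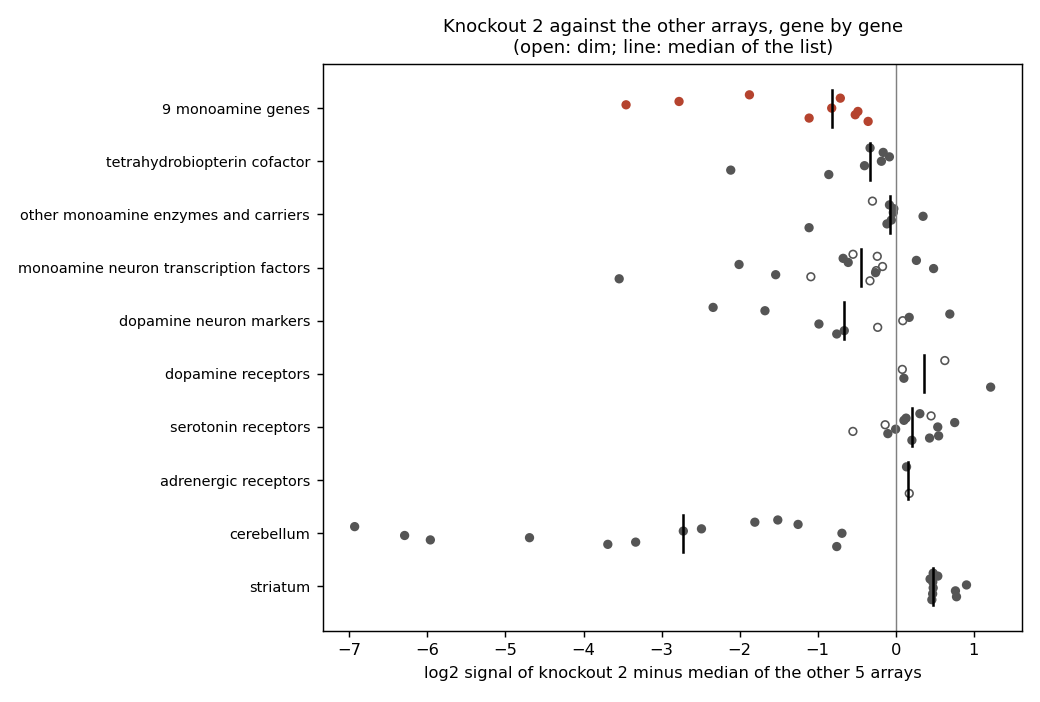
Log2 signal of knockout 2 minus the median of the other 5 arrays (horizontal axis) for each gene of 10 lists, with open circles for dim probe sets and a line at each list's median. The 9 monoamine genes all lie below 0, with a median of -0.82. The cerebellar genes have a median of -2.72 and the striatal genes of 0.48.

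Markers of brain regions also stood apart in knockout 2, and their part in these results was not tested. All 13 measured cerebellar genes were lowest there, with a summed signal of 36990 in knockout 2, 129847 to 177482 in the other knockouts and 154493 to 173658 in the wild types. Of 15 measured genes of hindbrain position and of brainstem neurons, 8 were lowest there, with sums of 1884 in knockout 2, 2421 to 6046 in the other knockouts and 4212 to 5140 in the wild types. Slc6a5, the glycine transporter of brainstem neurons, read 22.9 there and 353.8 to 999.8 elsewhere. Hoxa5, the brightest of that list, read 821 in knockout 2 and 817.4 to 996.3 elsewhere. All 10 measured striatal genes were highest in knockout 2, with a sum of 61423 against 35855 to 51625 in the other knockouts and 41506 to 41717 in the wild types. Penk, the brightest of them, read 17747 there and 9159 to 15383 elsewhere, and Pvalb, the brightest cerebellar gene, which cortical interneurons share, read 13405 there and 24350 to 40183 elsewhere.

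Other knockouts stood apart in other lists. Knockout 1 was the next lowest for brainstem genes, with Hoxb3 at 18.5 against 229.3 to 519.7 in knockouts 3 and 4 and the wild types, while its Tph2 lay between the wild types and its Slc6a4 and Slc18a2 above both. Knockout 3 alone held strong pituitary signal, with growth hormone (Gh) at 5930 and prolactin (Prl) at 3690, against up to 381.4 and 320.5 on the other arrays. Pmch, of lateral hypothalamic neurons, read 543.3 in knockout 2, 1612 in knockout 1 and 4274 to 4822 elsewhere. Astrocyte, microglia, mast cell and chromaffin lists differed less between arrays, with levels on the log2 scale from -0.27 to 0.41 around each gene's mean. The corresponding level of the 9 monoamine genes was 0.39, -1.05, -0.11 and 0.13 in knockouts 1 to 4, against wild types at 0.42 and 0.23.

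**Figure D4:**
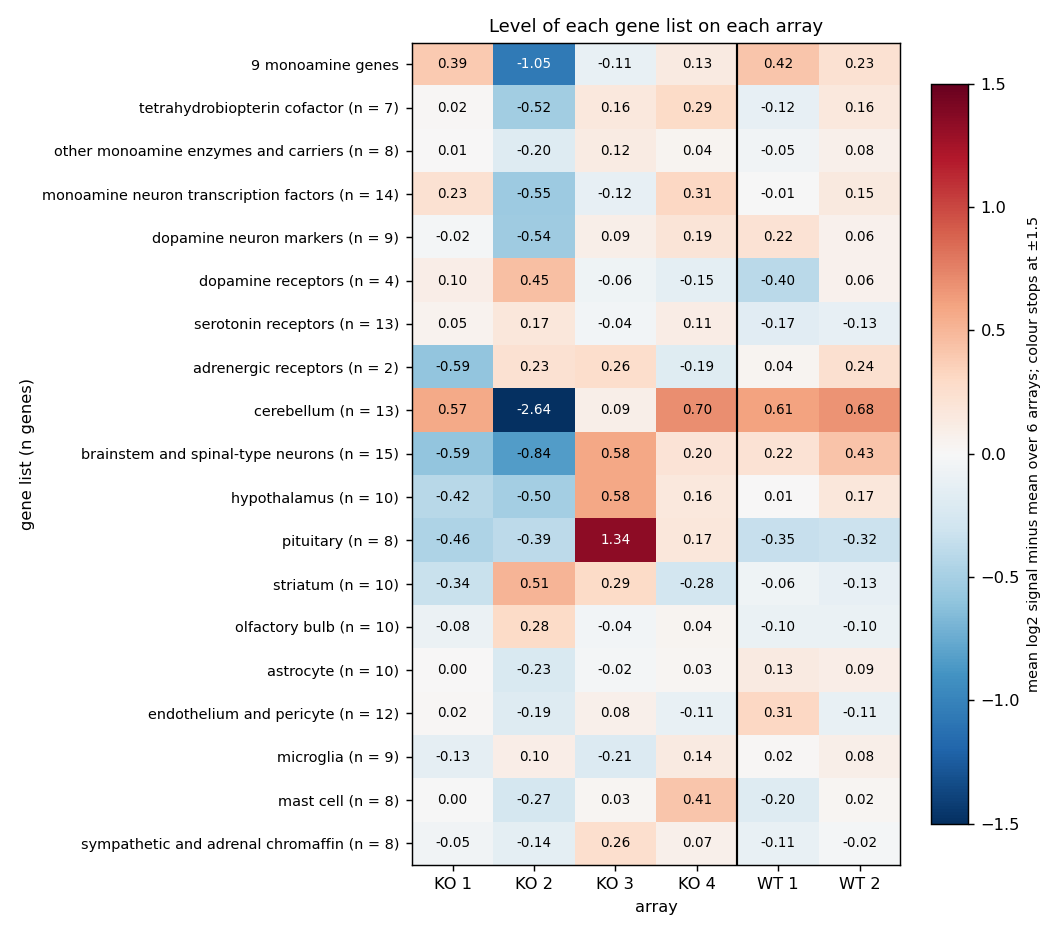
Mean log2 signal of each gene list (rows) on each array (columns), as the difference from the 6-array mean of each gene, with the value in each cell, red for higher and blue for lower. The 9 monoamine genes are at -1.05 in knockout 2, where the cerebellar list is at -2.64, the brainstem list at -0.84 and the striatal list at 0.51.

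The genes most like each of the 3 most variable members were found by the root mean square distance between log2 profiles over the 6 arrays, after removing each gene's mean, among 13299 other genes above the dim level. For Slc6a3 the nearest was Car8 at a distance of 0.25, a Purkinje cell gene that read 1058 in knockout 2 and 9323 to 16479 elsewhere, followed by Aqp6, Cnpy1, Slc1a6 and Dao at 0.34 to 0.38. For Slc6a4 the nearest was the transcription factor Lhx1 at 0.22, with 45.3 in knockout 2 and 421.8 to 752.1 elsewhere. Neurod1, Arhgef33, Tfap2b and Slco4a1 followed at 0.32 to 0.33. Neurod1, which like Car8 is in the cerebellar list, read 1930.6 in knockout 2 and 7067.5 to 12444.2 elsewhere. For Tph2 the nearest were Cdkn1b, Stk17b, Slc22a4, Trim62 and Rbm45 at 0.30 to 0.33, and Ddc came 6th. Tph2, which starts serotonin synthesis, and Slc6a4, which clears serotonin from the synapse, were each 14th nearest to the other. These distances over 6 arrays are a description only.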

How the data were processed

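Brain RNA of 4 knockout and 2 wild-type mice was measured, 1 array per mouse, and groups came from the labels. The deposited table gives 1 linear signal intensity per probe set and array. Per the submitters' processing notes GCOS 1.3 was used; the sources used here state neither the summary method nor detection calls. The authors' intensity values had been scaled: their trimmed mean was 1000 on every array. Of 45101 probe sets 64 were controls and were left out. Symbols came from the platform annotation, and 34945 probe sets had 1 symbol.

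Signals were taken to log2 after adding 49.6, the 20th percentile, so fold changes of dim genes are understated. Knockout minus wild type was fitted on all 45037 probe sets with lmFit and eBayes with an intensity trend (limma 3.58.1, R 4.3.3), with 2-sided tests and Benjamini-Hochberg adjustment over all of them. The method was tested on simulated data. No dim filter was used, and the number of arrays limits the precision. P-values measure the spread between mice and arrays together. Exact permutation tests were 2-sided over 15 splits. Knockouts and wild types are numbered in order of deposit.

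The members, lists and naming rule were chosen with earlier results of these data known. The rule named every member probe set, 21 fixed pathway genes of which 15 were measured, the gene with the smallest p in each direction in each list, the 5 nearest profiles of the 3 most variable members, and the marker genes quoted to describe an array. Alternatives were quantile normalisation, median centring, offsets 4 and 0.25 times as large, leaving out dim probe sets, no trend, the mean over a gene's probe sets, and leaving out each array.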

Additional observations from a re-analysis of the deposited data

Results flagged for a closer look

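Among the 4 knockouts, 1 mouse lay far from the other 3 on the log2 scale, past Dixon's 95% critical value for the gap over the range, for 8 of 74 probe sets screened. Chance gives about 1 in 20 groups, but this count cannot be set against that rate, because some of the genes screened were named for their values in knockout 2 or for their likeness to Slc6a3. In 6 of the 8 it was knockout 2, which was low: Maoa at 1160.3 on its brighter probe set, Pcp2 at 185.8, Gabra6 at 87.6, Gchfr at 10.3, Slc1a6 at 51.5 and Dao at 81.6. Slc1a6 and Dao had been named for their likeness to Slc6a3. The others were Htr2c at 2920.8 in knockout 1 and Pnmt at 289 in knockout 4, both lowest of the knockouts. Slc6a3, Slc6a4 and Tph2 were not among the 8.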

How the results depend on the processing

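No paired analysis was possible because the labels number each mouse separately and pair no knockout with a wild type. In every setting 0 of 13 monoamine probe sets and 0 of 57 pathway genes passed in limma. Over all probe sets the count was 0 except without wild type 2, where 171 passed, a range of 0 to 171 with 1 array left out. For the 13 probe sets 0 to 3 had an unadjusted p below 0.05 in limma, with 3 under median centring and also without knockout 1, and 0 without an intensity trend. The median over all 45037 probe sets was -0.14 after median centring, against 0.078 as deposited, and centring gave Gch1, Pts, Spr, Gata2 and Drd2 values of -0.18, -0.19, -0.078, -0.20 and -0.078. Quantile normalisation gave -0.17 for Gch1 and -0.041 for Gata2, and the larger offset 0.032 for the second Dbh probe set. The mean over probe sets gave -0.17 for Ddc, 0.12 for Dbh and -0.00079 for Maoa.

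With 1 array left out, the log2 fold change kept its direction for Th, Ddc, Slc18a2, Tph2, Slc6a4, Maob and the brighter Maoa probe set. It ran from -1.16 to 0.19 for Slc6a3, from -0.45 to 0.35, -0.34 to 0.41 and -0.027 to 0.90 for the first, second and brightest Dbh probe sets, and from -0.032 to 0.61 for the dimmer Maoa probe set. Among other genes whose sign turned, it ran from -0.60 to 0.46 for Tph1, -0.17 to 0.31 for Gch1, -0.19 to 0.23 for Pts, -0.19 to 0.10 for Qdpr, -0.54 to 1.55 for Pitx3, -0.061 to 0.087 for Gata2, -0.96 to 0.25 for Gata3, -0.14 to 1.03 for Phox2a, -0.31 to 0.29 for Htr1a and -0.48 to 0.072 for Drd4. Of those that kept their sign, it ran from 0.0014 to 0.28 for Spr, -0.31 to -0.050 for Pcbd1, 0.057 to 0.43 for Slc6a2, 0.044 to 0.52 for Drd1, 0.035 to 0.27 for Drd2, -0.19 to -0.047 for Htr2c, 0.25 to 1.55 for Pnmt and 0.14 to 0.31 for Adra2c. The cause was not tested.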
